A study of Mus musculus with 9 samples.

Results

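Glutamate receptors and the scaffold proteins of the postsynaptic density were examined in the striatum of R6/2 mice, through 33 genes of the 18193 measured. The genes were chosen by symbol: AMPA receptor subunits (Gria), NMDA receptor subunits (Grin), delta receptors (Grid, with the interacting protein gene Grid2ip), metabotropic glutamate receptors (Grm), the guanylate kinase scaffolds Dlg1 to Dlg5, the Dlg-associated proteins (Dlgap), Shank and Homer. Kainate receptors were not included, other genes of these families are not analysed here, and each gene is represented by its brightest probe set, the group of probes that the array designs against 1 transcript. The probe set was taken by its mean over all 9 arrays, and no difference between genotypes entered that step. The families themselves were chosen with earlier results of these data known, so shares of members that passed are descriptive.

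RNA came from the striatum of 9 female mice on a C57Bl/6 / CBA background at 12 weeks of age, 1 array per mouse. The 4 wild-type mice (46, 47, 49 and 66) were 85 days old. The 5 R6/2 mice, named R62_86, R62_95, R62_105, R62_107 and R62_109, carry a transgene with exon 1 of mutant human huntingtin, driven by the human huntingtin promoter, in addition to the mouse's own huntingtin genes. Mouse R62_86 was 85 days old and the other 4 were 83 days old. Values are log2 expression, and a difference is R6/2 minus wild-type. A gene passed when its Benjamini-Hochberg adjusted p over all genes in limma was under 0.05.

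Most neurons of the striatum are GABAergic spiny projection neurons that receive glutamate from cortex and thalamus on dendritic spines. AMPA receptors carry the fast current, NMDA receptors admit calcium when glutamate and depolarisation coincide, and metabotropic receptors act through G proteins. Beneath the membrane, Dlg proteins bind receptor tails, Dlgap proteins join Dlg to Shank, and Homer joins Shank to group I metabotropic receptors and to calcium release channels. The array measures transcripts of the whole tissue, so fewer cells of a type and less RNA per cell cannot be told apart.

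Of the receptor and scaffold genes, 11 were lower in R6/2 mice and 3 were higher. The lower genes were Dlgap3, Grm4, Homer1, Grm3, Shank3, Grm5, Dlg4, Dlg2, Grin2c, Grid1 and Gria3, with differences from -0.85 to -0.26. The higher genes were Grin3a (0.89), Dlg5 (0.64) and Homer2 (0.38). Thus 11 of 33 members (33.3%) were lower against 7.57% of all genes, and 3 of 33 (9.09%) were higher against 9.28% of all genes. Among the brighter 50% of genes, tested alone, 11 of 23 members were lower against 11.9% of those genes, and 2 were higher against 17.9%. In either direction 14 of 33 (42.4%) passed, and 16.9% of all genes did. The median difference was -0.16 over the members and -0.02 over all genes. In all 11 lower genes every R6/2 mouse lay below every wild-type mouse. Dlg1 also showed no overlap without passing (-0.16 ± 0.07, SE, adjusted p 0.117), so 12 members were lower without overlap, against 8.09% of all genes. A dim probe set of Dlg1 lay the other way, also without overlap. Of the members, 10 lay in the dimmer 50% of all genes, among them Grin2a, Shank1 and Dlgap5, and of these 10 Grin3a alone passed. A dim probe set can understate a change.

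**Figure D1:**
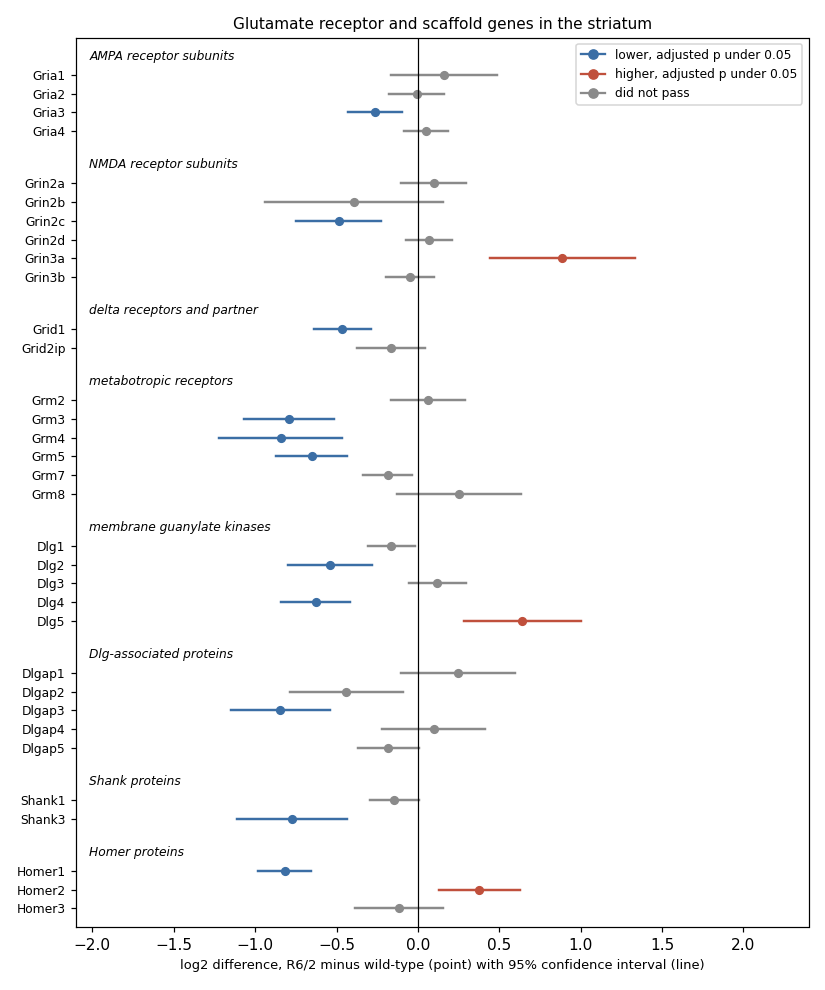
Log2 difference (R6/2 minus wild-type, x axis) of the 33 members by family, with 95% confidence intervals from limma; 4 wild-type and 5 R6/2 mice. The 11 blue genes (-0.85 to -0.26) lie left of 0, the 3 red genes (0.38 to 0.89) right of it, and the 19 grey genes did not pass.

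Markers of other cell types and of neighbouring tissue differed between mice. The markers of spiny projection neurons were high in every wild-type mouse (mean log2 value 11.34 to 11.66) and lower in every R6/2 mouse (9.49 to 10.40), and 15 of 16 fell. Of 10 measured markers of cortex projection neurons 4 rose and 1 fell. Their mean, the cortex score, was 6.97, 6.71, 6.33 and 6.06 in wild-type mice 46, 47, 49 and 66, and 7.31, 7.02, 7.57, 6.76 and 7.42 in R62_86, R62_95, R62_105, R62_107 and R62_109. The 9 choroid plexus markers averaged 8.24 and 8.43 in wild-type mice 47 and 66, against 5.00 to 6.71 in the others. By limma 0 of 9 passed, and 1 had an unadjusted p under 0.05. Of 8 astrocyte markers 4 fell and of 8 microglia markers 4 fell. The microglia means did not overlap (7.93 to 8.35 in wild-type, 7.44 to 7.80 in R6/2). The astrocyte means (9.55 to 9.91 and 9.36 to 9.54) all but touched, at 9.545 in the lowest wild-type and 9.544 in the highest R6/2 mouse. Of the astrocyte markers 3 had differences above 0, among them Gfap (0.42 ± 0.16, SE, adjusted p 0.0941).

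AMPA receptors are tetramers of the Gria subunits. Gria3 was 10.12, 9.89, 9.88 and 10.14 in wild-type mice 46, 47, 49 and 66, and 9.74, 9.76, 9.64, 9.76 and 9.81 in R62_86, R62_95, R62_105, R62_107 and R62_109. Its groups did not overlap, but lay within 0.06 of each other at their nearest values. Gria3 fell by 0.26 ± 0.08 (SE, adjusted p 0.0369), to 0.834 of the wild-type level. This call was the least stable of the 11: it held without wild-type mouse 47 or 49, and was lost without any one of the other 7 mice (adjusted p 0.0522 to 0.101). These were wild-type 46 (0.0923) and 66 (0.101) and R62_86 (0.0729), R62_95 (0.0522), R62_105 (0.0847), R62_107 (0.0617) and R62_109 (0.0543). It was lost too with the mean of its probe sets (-0.24, adjusted p 0.152), of which the dimmer gave -0.21 ± 0.16 with overlapping groups.

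The other AMPA subunits did not pass. Gria2, which limits calcium entry through the receptor, was 11.92 ± 0.11 (SD, n = 4) for wild-type mice and 11.92 ± 0.10 (SD, n = 5) for R6/2 (difference -0.01 ± 0.08, adjusted p 0.957, 95% confidence interval -0.18 to 0.16). Its 3 probe sets gave -0.01, -0.25 and 0.37, and none passed over all probe sets (lowest adjusted p 0.0630). Gria1 gave 0.16 ± 0.15 (adjusted p 0.504) and Gria4 0.05 ± 0.06 (adjusted p 0.628).

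To compare members of a family directly, the log2 value of one was subtracted from that of the other in each mouse. The genotypes were compared with a two-sided exact permutation test, over all 126 ways to divide the mice into 4 and 5. Of 41 pairs within families, 22 passed after adjustment over the 41. Pairs of a family share genes and are not independent. No share over pairs of other genes was computed, so the count cannot be read as particular to these families. The smallest p that the test can give is 0.00794, and the smallest adjusted p found was 0.0296. In 15 of the 22 pairs both genes lay in the brighter 50% of all genes. Both Gria pairs that passed contained Gria3. Gria3 minus Gria4 fell by 0.31, from 0.95 ± 0.14 (SD, n = 4) to 0.64 ± 0.07 (SD, n = 5), and Gria2 minus Gria3 rose by 0.25 (exact p = 0.00794 and adjusted p 0.0296 for each).

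NMDA receptors combine an obligatory subunit with Grin2 or Grin3 subunits, which set calcium entry and kinetics. Grin2c was 7.38, 7.24, 7.43 and 7.46 in wild-type mice, and 6.83, 7.23, 6.54, 6.90 and 6.96 in R62_86, R62_95, R62_105, R62_107 and R62_109. Mouse R62_95 lay just below the lowest wild-type mouse, 47, and the other 4 lay clearly lower. Grin2c fell by 0.49 ± 0.12 (SE, adjusted p 0.0178), to 0.714 of the wild-type level, a call that ended without wild-type mouse 66 (-0.46, adjusted p 0.0511). Grin2c minus Grin2d fell by 0.55 (exact p = 0.0159, adjusted p 0.0407).

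Grin3a, a subunit that lowers the calcium permeability of NMDA receptors, rose most of all members. It was 6.57, 6.00, 5.72 and 5.49 in wild-type mice 46, 47, 49 and 66, and 6.70, 7.02, 6.58, 6.66 and 7.19 in R6/2 mice. The wild-type mice spread widely, and the highest of them, 46, lay just below the lowest R6/2 mouse, R62_105. The order of the 4 wild-type mice for Grin3a was that of their cortex scores. Among the R6/2 mice, R62_105 had the highest cortex score (7.57) and the lowest Grin3a value. Mouse R62_109 had the next highest score (7.42) and the highest Grin3a value. The part of the cortex score in Grin3a was not tested beyond the fit with it as a covariate. Grin3a rose by 0.89 ± 0.20 (SE, adjusted p 0.0133), 1.85 times the wild-type level. With the cortex score as a covariate the difference was 0.46 ± 0.25 (adjusted p 0.400). A second of its 3 probe sets rose too (0.80 ± 0.23, adjusted p 0.0466 over all probe sets), and the last gave 0.44 ± 0.20 (0.181). Grin3a minus Grin3b, its paralogue, rose by 0.94 (exact p = 0.0159, adjusted p 0.0407).

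Grin2b, the main Grin2 subunit of the developing forebrain, gave -0.39 ± 0.25 (adjusted p 0.314), with values from 7.14 to 8.19 in R6/2 and from 7.42 to 8.59 in wild-type mice. Its next probe set, nearly as bright, gave 0.32 ± 0.19 (adjusted p 0.335 over all probe sets), so the direction of Grin2b was not settled. Grin2a (0.10 ± 0.09, adjusted p 0.503), Grin2d (0.07 ± 0.06, adjusted p 0.523) and Grin3b (-0.05 ± 0.07, adjusted p 0.652) were all dim. Grin2a lay at 4.19 on average, brighter than 22.6% of genes, so these values do not show how its transcript behaved.

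Of the delta receptors, which resemble ionotropic receptors and bind synaptic organizers, Grid1 was measured. It was 8.14, 7.83, 8.05 and 8.15 in wild-type mice and 7.63, 7.65, 7.46, 7.60 and 7.55 in R6/2 mice. The 5 R6/2 mice lay close together and below all wild-type mice. Grid1 fell by 0.47 ± 0.08 (SE, adjusted p 0.00330), to 0.724 of the wild-type level. Its dimmer probe set gave -0.26 ± 0.12 (adjusted p 0.201 over all probe sets), with overlapping groups. The dim scaffold gene Grid2ip gave -0.17 ± 0.09 (adjusted p 0.265).

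Metabotropic receptors fall into group I, coupled to phospholipase C, and groups II and III, which lower cyclic AMP and are largely presynaptic. In each group 1 measured gene fell. Grm5, the group I receptor abundant in spiny projection neurons, was 11.15, 11.02, 11.29 and 11.23 in wild-type mice and 10.55, 10.68, 10.23, 10.66 and 10.47 in R6/2 mice. All R6/2 mice were lower, and mouse R62_105 was lowest. Grm5 fell by 0.65 ± 0.10 (SE, adjusted p 0.00183), to 0.636 of the wild-type level, and its second probe set by 0.77 ± 0.11.

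Grm3, a group II receptor found on astrocytes as well as neurons, was 10.32, 10.32, 10.24 and 10.31 in wild-type mice and 9.54, 9.73, 9.39, 9.78 and 9.10 in R6/2 mice. The wild-type mice hardly differed from each other, and the R6/2 mice spread over 0.68 below them. Grm3 fell by 0.79 ± 0.12 (SE, adjusted p 0.00216), to 0.578 of the wild-type level. The part that the astrocyte markers have in this was not tested. Grm2, the other group II receptor, gave 0.06 ± 0.10 (adjusted p 0.731) at a dim level, and Grm2 minus Grm3 rose by 0.85 (exact p = 0.00794, adjusted p 0.0296).

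Grm4, a group III receptor, was 7.71, 7.76, 7.47 and 8.16 in wild-type mice and 6.96, 7.20, 6.40, 7.15 and 6.95 in R6/2 mice. Wild-type mouse 66 was highest and mouse R62_105 lowest, and the groups did not overlap. Grm4 fell by 0.84 ± 0.17 (SE, adjusted p 0.00809), to 0.558 of the wild-type level. Grm7 gave -0.19 ± 0.07 (adjusted p 0.0833), although a dimmer probe set of it fell by 0.64 ± 0.14 (adjusted p 0.0155 over all probe sets). Grm8 gave 0.25 ± 0.17 (adjusted p 0.354) and passed without mouse R62_95 (0.42, adjusted p 0.0170), which was the lowest of all 9 mice for it at 4.74. Grm4 minus Grm8 fell by 1.10 and Grm4 minus Grm7 by 0.66 (exact p = 0.0238, adjusted p 0.0444 for each).

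**Figure D2:**
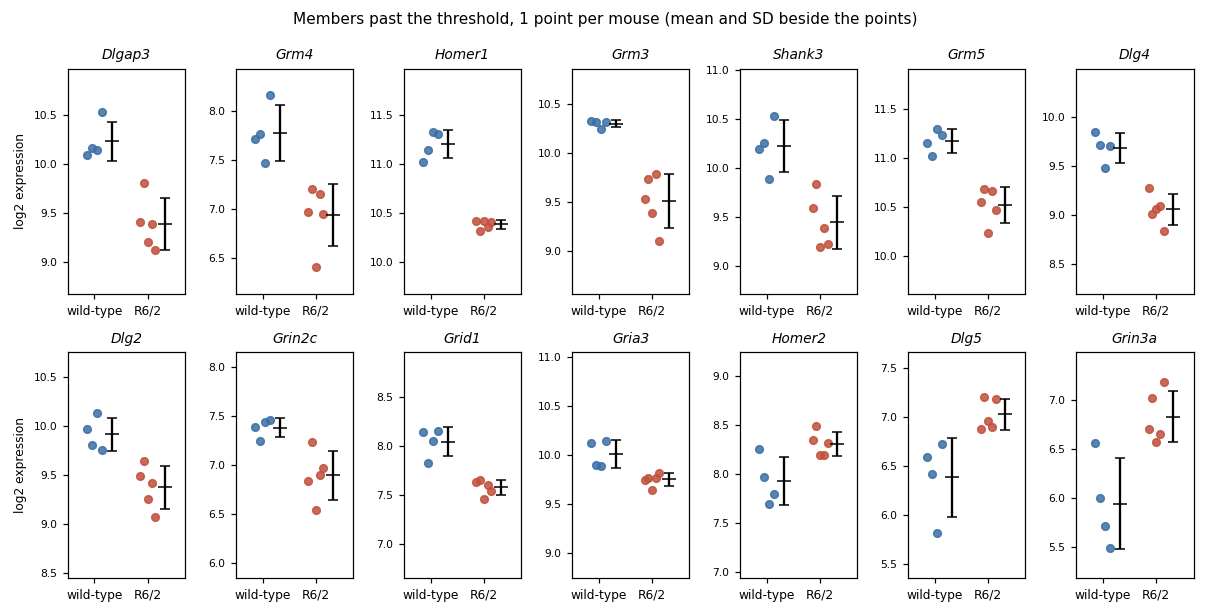
Log2 expression (y axis, each panel spanning the same range of log2 units) of the 14 members that passed, 1 point per mouse, with mean and SD beside the points; wild-type blue (n = 4), R6/2 red (n = 5). The groups overlap for Homer2 alone, and the R6/2 mice lie close together for Homer1 (10.32 to 10.42).

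Of the guanylate kinase scaffolds, Dlg4 and Dlg2 fell and Dlg5 rose. Dlg4, which encodes PSD-95, the central scaffold of excitatory synapses, was 9.85, 9.71, 9.48 and 9.71 in wild-type mice and 9.28, 9.02, 9.07, 9.09 and 8.84 in R6/2 mice. Every R6/2 mouse was lower. Dlg4 fell by 0.63 ± 0.10 (SE, adjusted p 0.00198), to 0.647 of the wild-type level. A second probe set fell by 0.74 ± 0.19, and a dim one gave -0.07 ± 0.11 (adjusted p 0.733 over all probe sets).

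Dlg2, which encodes the related scaffold PSD-93, was 9.96, 9.81, 10.13 and 9.75 in wild-type mice and 9.48, 9.64, 9.26, 9.41 and 9.07 in R6/2 mice. The groups were separated by a gap of 0.11 between wild-type 66 and R62_95. Dlg2 fell by 0.54 ± 0.12 (SE, adjusted p 0.0111), to 0.688 of the wild-type level. Of its dimmer probe sets, 1 fell by 0.86 ± 0.17 and 1 gave -0.72 ± 0.25 (adjusted p 0.0978 over all probe sets). Dlg3, which encodes SAP102, gave 0.12 ± 0.08 (adjusted p 0.342), and Dlg1, which encodes SAP97, gave -0.16 ± 0.07 (adjusted p 0.117). The next Dlg1 probe set gave -0.12 ± 0.11 with overlapping groups. Its dimmest, at 4.35 on average, gave 0.51 ± 0.16 (adjusted p 0.0605 over all probe sets), with every R6/2 mouse above every wild-type mouse. The direction of Dlg1 thus differed between probe sets.

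Dlg5, a more distant relative with roles in cell polarity, rose. It was 6.60, 6.42, 5.82 and 6.72 in wild-type mice and 6.89, 7.21, 6.96, 6.90 and 7.19 in R6/2 mice. Wild-type mouse 49 was far below the other 3, and the R6/2 mice were all higher. Dlg5 rose by 0.64 ± 0.16 (SE, adjusted p 0.0222), 1.56 times the wild-type level, and its call ended without wild-type 47 (0.65, adjusted p 0.0511) or R62_109 (0.60, adjusted p 0.0552). Of its 2 dimmer probe sets, 1 rose (0.37 ± 0.09) and 1 gave -0.04 ± 0.05.

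The log2 difference between 2 members of this family passed in 8 of 10 pairs, and every pair with Dlg5 was among them. The largest changes were in Dlg4 minus Dlg5 (fell by 1.27), Dlg2 minus Dlg5 (fell by 1.18) and Dlg1 minus Dlg5 (fell by 0.80), each with exact p = 0.00794 and adjusted p 0.0296. Dlg3 minus Dlg4, chosen after its value was seen, was -0.45 ± 0.16 (SD, n = 4) for wild-type mice and 0.30 ± 0.20 (SD, n = 5) for R6/2, a rise of 0.75 with the same exact p. Dlg2 minus Dlg4 did not pass (difference 0.09, exact p = 0.508, adjusted p 0.548).

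Dlgap proteins bind the guanylate kinase domain of Dlg. Dlgap3, which encodes SAPAP3 and is the family member most strongly expressed in striatum, had the lowest difference of all 33 genes. It was 10.09, 10.17, 10.15 and 10.53 in wild-type mice and 9.41, 9.81, 9.21, 9.40 and 9.12 in R6/2 mice. Wild-type 66 stood above the other wild-type mice, and R62_95 above the other R6/2 mice. Dlgap3 fell by 0.85 ± 0.14 (SE, adjusted p 0.00273), to 0.557 of the wild-type level.

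The other Dlgap genes did not pass. Dlgap2 gave -0.44 ± 0.16 (adjusted p 0.0816) and passed without wild-type mouse 49 (-0.62, adjusted p 0.00467), whose value of 6.87 lay among those of the R6/2 mice. Dlgap1 gave 0.25 ± 0.16 (adjusted p 0.321), with all 6 of its probe sets above 0 and none past the threshold. Dlgap4 gave 0.10 ± 0.14 (adjusted p 0.690) and Dlgap5, a mitotic protein gene that was dim here, -0.18 ± 0.09 (adjusted p 0.175). Dlgap1 minus Dlgap3 rose by 1.09 (exact p = 0.0159, adjusted p 0.0407), and Dlgap3 minus Dlgap4 fell by 0.94 (exact p = 0.00794, adjusted p 0.0296). Dlgap3 minus Dlgap5 fell by 0.66 (exact p = 0.0238, adjusted p 0.0444).

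Shank proteins form the deep layer of the density, between Dlgap and Homer. Shank3 was 10.20, 10.26, 9.89 and 10.54 in wild-type mice and 9.59, 9.84, 9.20, 9.39 and 9.22 in R6/2 mice. Mouse R62_95 came within 0.05 of wild-type mouse 49, and the other R6/2 mice lay well below. Shank3 fell by 0.77 ± 0.15 (SE, adjusted p 0.00697), to 0.584 of the wild-type level. Shank1 was dim at 4.42 on average and gave -0.15 ± 0.07 (adjusted p 0.173). Shank1 minus Shank3 rose by 0.63 (exact p = 0.0238, adjusted p 0.0444), with 1 partner dim.

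Homer proteins link Shank to group I metabotropic receptors and to inositol trisphosphate and ryanodine receptors. Homer1 also gives rise to a short form, Homer1a, that is induced by neuronal activity and uncouples these links. Homer1 was 11.02, 11.14, 11.33 and 11.31 in wild-type mice and 10.42, 10.32, 10.42, 10.35 and 10.41 in R6/2 mice. The 5 R6/2 mice spanned 0.11 and lay 0.60 or more below every wild-type mouse. Homer1 fell by 0.82 ± 0.07 (SE), to 0.567 of the wild-type level, with the smallest adjusted p of the members (0.000143).

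All 6 probe sets of Homer1 fell. Of these, 5 gave differences of -1.04 to -0.82, and the other, 1436387_at, gave -2.38 ± 0.14 (SE, adjusted p 9.38e-05 over all probe sets), 0.192 of the wild-type level. This probe set was singled out after its value was seen. It was 9.35, 9.09, 9.60 and 9.36 in wild-type mice and 7.36, 6.85, 6.94, 6.63 and 7.06 in R6/2 mice, and a gap of 1.73 separated the groups. Its value minus that of the brightest probe set lay between -2.05 and -1.68 in wild-type and between -3.72 and -3.06 in R6/2 mice. The annotation used here does not say which Homer1 transcript a probe set detects, so a fall of a particular form was not tested.

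Homer2 moved the other way. It was 8.25, 7.96, 7.69 and 7.79 in wild-type mice and 8.35, 8.48, 8.19, 8.19 and 8.31 in R6/2 mice. Wild-type mouse 46 lay above mice R62_105 and R62_107, so the groups overlapped. Homer2 rose by 0.38 ± 0.11 (SE, adjusted p 0.0411), 1.30 times the wild-type level. The call held without wild-type 46 and was lost without any one of the other 8 mice. The adjusted p was 0.0785 without wild-type 47, 0.0930 without 49 and 0.107 without 66, and 0.0851, 0.0781, 0.0554, 0.0503 and 0.0805 without R62_86, R62_95, R62_105, R62_107 and R62_109. Its other 2 probe sets gave 0.05 ± 0.12 and 0.05 ± 0.11, and with the mean of the probe sets it did not pass (0.16, adjusted p 0.280). Homer3, dim at 5.09 on average, gave -0.12 ± 0.12 (adjusted p 0.564).

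Homer1 minus Homer2 was 3.28 ± 0.39 (SD, n = 4) for wild-type mice and 2.08 ± 0.15 (SD, n = 5) for R6/2. It fell by 1.20 and was lower in all 5 R6/2 mice than in any wild-type mouse (exact p = 0.00794, adjusted p 0.0296). Homer1 minus Homer3 fell by 0.70 (exact p = 0.0159, adjusted p 0.0407).

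For the 2 Homer genes that passed, the 250 bases before their outermost annotated starts are shown. They come from RefSeq on the GRCm38.p6 build, 5′ to 3′ on the gene's strand. A different motif is marked in each gene, and any part of these letters in the 2 differences was not tested. Homer1 lies on the plus strand and Homer2 on the minus strand. Capitals mark TGACG, the core of the cyclic AMP response element, in Homer1, and GGGCGG, the GC box, in Homer2, each searched on both strands (CGTCA and CCGCCC). The Homer1 window is chr13:93303507-93303756 and the Homer2 window is chr7:81706926-81707175.
Homer1: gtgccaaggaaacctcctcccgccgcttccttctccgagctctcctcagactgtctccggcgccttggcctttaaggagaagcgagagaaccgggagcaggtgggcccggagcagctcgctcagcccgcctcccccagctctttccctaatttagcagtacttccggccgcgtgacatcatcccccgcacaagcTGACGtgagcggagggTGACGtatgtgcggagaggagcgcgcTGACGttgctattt
Homer2: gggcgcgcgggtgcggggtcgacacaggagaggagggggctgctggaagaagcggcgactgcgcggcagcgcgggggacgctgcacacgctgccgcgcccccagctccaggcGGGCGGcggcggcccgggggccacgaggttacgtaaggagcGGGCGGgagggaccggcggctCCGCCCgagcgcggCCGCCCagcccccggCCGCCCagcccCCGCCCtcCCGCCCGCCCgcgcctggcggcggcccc

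The Homer1 window held 3 copies of TGACG, which begin 56, 40 and 14 bases before the start, and no GC box. The Homer2 window held 8 GC boxes, of which the last 2 overlap, and no TGACG. The second window of each gene, at an inner start, held neither motif. At least 1 copy of TGACG was found in 17.8% of all 32851 promoter windows of this length, and a GC box in 32.7%. Windows were at hand for 22 of the 33 members. Of their 37 windows, 4 held TGACG and 16 a GC box. The next counts are by gene over any of its windows, and no such share over all genes was computed. TGACG was found for 2 of 7 lower members (Homer1 and Dlg4), 0 of 2 higher members and 2 of 13 that did not pass. A GC box was found for 4 of 7 lower, 1 of 2 higher and 8 of 13 other members. The full palindrome TGACGTCA, which 1.55% of all windows hold, was in no member's window, and GCGTGGGCG, a motif bound by Egr factors and held by 0.536% of windows, was in that of Shank3 alone. A match is a string of letters and not a measured binding site.

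**Figure D3:**
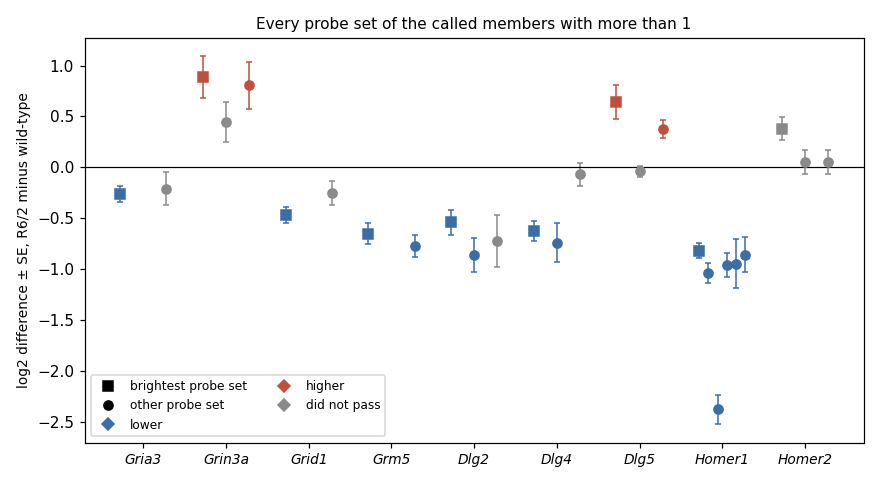
Log2 difference ± SE (y axis, R6/2 minus wild-type) of every probe set of the 9 members that passed and have more than 1 probe set; squares are the brightest probe set, and colours give the call adjusted over all probe sets. The lowest point is the Homer1 probe set at -2.38, and the 3 Homer2 probe sets (0.05 to 0.38) did not pass here.

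Over the 71 probe sets of the members, each tested alone, 20 fell (28.2%) and 4 rose (5.63%), against 5.58% and 6.62% of all 34945 probe sets that name 1 gene. Probe sets of 1 gene repeat that gene and are not independent, and Homer1 alone gave 6 of the 20. In 0 members did 1 probe set pass as higher and another pass as lower.

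**Figure D4:**
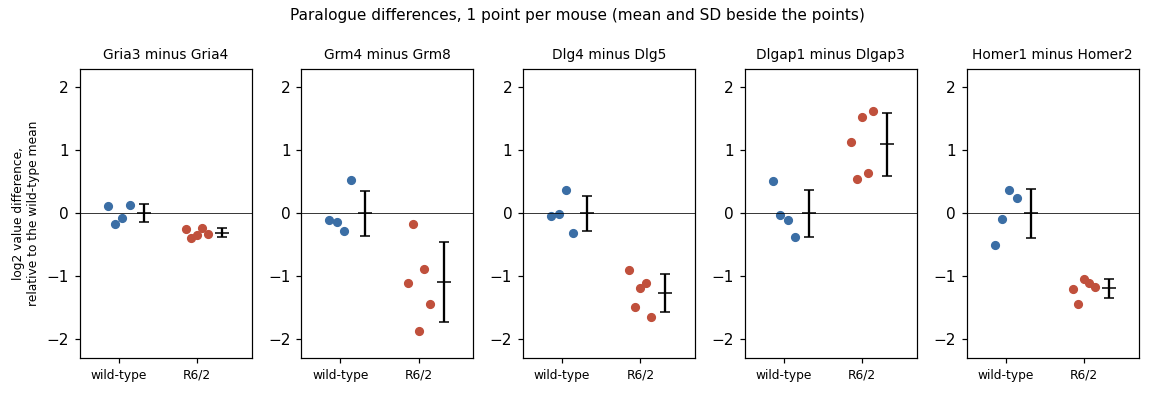
Log2 value of one paralogue minus that of another in each mouse, relative to the wild-type mean (y axis). In 5 families, the pair of largest change among those that passed is shown. Points are mice, with mean and SD beside them, wild-type blue (n = 4) and R6/2 red (n = 5). Changes run from -1.27 (Dlg4 minus Dlg5) to 1.09 (Dlgap1 minus Dlgap3), and Grm4 minus Grm8 is the one pair shown whose groups overlap.

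Across the 11 lower genes, mouse R62_105 was the lowest of the R6/2 mice for 6 and mouse R62_109 for 4, while mouse R62_95 was the highest for 7. Mouse R62_105 also had the lowest score of spiny projection neuron markers (9.49) and the highest cortex score (7.57). The part of either in the members' differences was not tested beyond the fit with the cortex score as a covariate.

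In that fit all 11 lower genes still had differences below 0 (-0.73 to -0.23) and the 3 higher genes above 0 (0.19 to 0.59). Of the lower genes 9 of 11 had an unadjusted p under 0.05, and 2 passed, against 1.11% of all genes: Homer1 (-0.73 ± 0.11, adjusted p 0.0140) and Dlg4 (-0.69 ± 0.15, adjusted p 0.0479). None of the higher genes passed with adjustment over all genes, against 0.704% of all genes, and 1 of the 3 had an unadjusted p under 0.05. The median of the 11 was -0.47, and it was -0.65 with genotype alone. Among those nearer to 0 than with genotype alone were Homer1 (-0.73), Grm4 (-0.47), Grm5 (-0.42), Dlgap3 (-0.54), Grm3 (-0.58) and Shank3 (-0.58). The difference of Dlg4 was not nearer to 0.

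Without wild-type mice 47 and 66 and mouse R62_107, whose choroid plexus scores were highest, the 11 lower genes were at -0.84 to -0.26. Homer1, Grm5, Grm3 and Grid1 passed, against 2.69% of all genes, and none of the 3 higher genes did, against 2.16% of all genes (0.36 to 0.85, lowest adjusted p 0.0630), 2 of them at an unadjusted p under 0.05. With age as a covariate, where the estimate rests on mouse R62_86 against the wild-type mice, the lower genes were at -0.82 to -0.26. None passed with adjustment over all genes (lowest adjusted p 0.0527, for Homer1), against 0.143% of all genes, and 9 of 11 had an unadjusted p under 0.05. The 3 higher genes (0.42 to 0.76) did not pass either, against 0.022% of all genes, and 0 of 3 had an unadjusted p under 0.05.

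**Figure D5:**
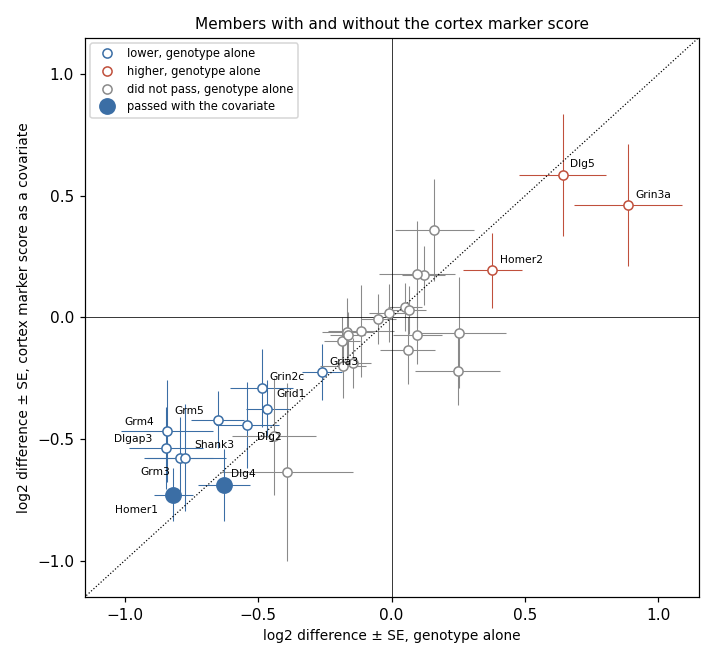
Log2 difference ± SE of the 33 members with genotype alone (x axis) and with the cortex marker score as a covariate (y axis); colour gives the call with genotype alone, and filled points passed with the covariate. The 2 filled points are Homer1 (-0.73) and Dlg4 (-0.69), and the dotted line marks equal values.

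The genes that work with these receptors were followed in 4 lists chosen by known role, with 84 measured genes in all. These lists were also drawn up with earlier results of these data known, so their shares are descriptive. Of these, 28 fell (33.3%, against 7.57% of all genes) and 12 rose (14.3%, against 9.28%). The lists were bright, with mean log2 values of 8.08 to 9.40 in wild-type mice against 6.51 for all genes. Among the brighter 50% of genes, tested alone, 11.9% fell and 17.9% rose. The 14.3% therefore cannot be read as an excess of rising genes. Among 23 AMPA receptor auxiliary and trafficking genes, 8 fell and 1 rose, with a median of 0.03. Gsg1l, an auxiliary subunit, fell from 9.09 to 7.57, by 1.52 ± 0.13 (SE). Nptx2, a secreted pentraxin that clusters AMPA receptors, fell by 0.93 ± 0.10 and the auxiliary subunit gene Shisa9 fell by 0.80 ± 0.15.

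Of 31 partners in the postsynaptic density 12 fell and 5 rose (median -0.29). Neto2, an auxiliary subunit of kainate receptors, fell by 1.37 ± 0.09 (SE). Lrrtm1, a postsynaptic adhesion protein gene, fell by 0.88 ± 0.07, and Baiap2, a Shank-binding regulator of actin, fell by 0.80 ± 0.09. Tanc1, another scaffold, rose by 0.54 ± 0.10 (adjusted p 0.00642). With the cortex score as a covariate Gsg1l (-1.30), Nptx2 (-0.97), Neto2 (-1.26), Lrrtm1 (-0.90) and Baiap2 (-0.64) passed, and Shisa9 (-0.54, adjusted p 0.236) and Tanc1 (0.60, adjusted p 0.0939) did not.

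Of 17 genes of group I receptor signalling and Homer partners, 5 fell and 3 rose (median -0.14). Ryr1, a ryanodine receptor gene, fell by 3.12 ± 0.28 (SE). Rgs4, which shortens G protein signals, fell by 1.69 ± 0.16, and Prkcb, a protein kinase C gene, fell by 0.62 ± 0.07. Gnaq, the G protein that couples group I receptors to phospholipase C, rose by 0.39 ± 0.07 (adjusted p 0.00363). All of these but Gnaq (0.34, adjusted p 0.135) passed with the cortex score as a covariate.

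Of 13 genes of glutamate transport and synthesis, 3 rose and 3 fell (median 0.06). Slc1a6, a neuronal glutamate transporter gene at a dim level, rose by 1.22 ± 0.17 and Slc38a1, a glutamine transporter gene, by 0.52 ± 0.09, whereas Slc1a2, the main astrocyte glutamate transporter gene, fell by 0.48 ± 0.08. None of the 3 passed with the cortex score as a covariate (0.83, 0.39 and -0.40, adjusted p 0.0724, 0.155 and 0.149).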

How the data were processed

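The submitters deposited log2 expression values of 45101 probe sets for each of the 9 arrays, which per the submitters' processing notes come from RMA in affy. RMA removes background, forces a common distribution on the arrays and summarises probes, so a change in total RNA per cell is not seen. Its version is not given in the sources read. For arrays, their number limits the precision. Correlations of 2 arrays ran from 0.979 to 0.995, and at most 3.93% of values were identical, so each array was 1 replicate.

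Of the probe sets, 34945 named 1 gene and 932 several in the platform annotation, 64 were controls and 9160 others were not listed. The brightest probe set represented each of 18193 genes, with no filter on dim ones. Members had 71 probe sets, and 19 members had more than 1. Genotype was the only term in limma 3.58.1 (lmFit, eBayes; R 4.3.3), with Benjamini-Hochberg adjusted p-values (two-sided). Paralogue pairs were compared by an exact permutation test. The fit was tested on simulated data for R6/2 against wild-type mice (18193 genes) and found 68.7% of log2 changes of 0.5, 98.5% of 1 and 100% of 2. Figures were drawn with matplotlib 3.10.9. Alternatives concerned probe set summary, dim genes, normalization, centring, moderation, weights, covariates, the threshold and mice left out.

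The members, the lists and the alternatives were chosen with earlier results of these data known. Named genes were all members, and in each partner list the 3 of smallest p and the gene of smallest p that moved against the median. Of the paralogue pairs that passed, up to 3 per family were named by size. Some items are not reported here.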

Additional observations from a re-analysis of the deposited data

Results flagged for a closer look

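Each member was checked in each genotype for a mouse far from the others, 66 groups in all, and 4 values stood apart by Dixon's ratio, where chance gives about 1 in 20. Gria2 was 12.10 in mouse R62_95, above 11.83 to 11.90 in the other R6/2 mice. Dlgap4 was 9.41 in the same mouse, above 8.66 to 8.75 in the others. Grm3 was 10.24 in wild-type mouse 49, below 10.31 to 10.32 in the others, a distance far smaller than its difference between genotypes. Homer3 was 5.34 in wild-type mouse 49, above 5.10 in the others.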

How the results depend on the processing

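All 14 members that passed kept their direction under each of the 21 alternatives run, except that Grin3a has no value among the brighter 50% of genes. Where only the set of genes, the variance moderation or the threshold was changed, the difference is the same by construction, so its direction could not change. Of 974 single-gene values under alternatives, 92 lost a call and 6 gained one, and no value that passed, in the reported fit or under the alternative, had the opposite sign. The count of 11 lower members was 0 with age as a covariate, 2 with the cortex score as a covariate and 4 without the 3 arrays of highest choroid plexus score. The count of 3 higher members was 0 in these fits, without variance moderation and at an adjusted p of 0.01. With 1 mouse left out the counts were 9 to 12 lower (5.61% to 7.62% of all genes) and 1 to 3 higher (6.16% to 9.34%), with 1 higher without wild-type 47 or R62_109. Under centring on 6 housekeeping genes the median difference over all genes was -0.15 in place of -0.02, with 495 genes higher (2.72%) and 2510 lower (13.8%) in place of 1688 and 1378. Among the members 14 were then lower, Grm7, Dlgap2 and Shank1 in addition, and 2 higher.

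The 28 lower partner genes were 3 with age and 10 with the cortex score as a covariate, and 16 without the 3 arrays. The 12 higher ones were 7 with housekeeping centring, 4 without moderation or at 0.01, 0 with either covariate and 2 without the 3 arrays, and 7 to 13 with 1 mouse left out (7 without wild-type 47 or 49 or R62_86, R62_105 or R62_109). The 22 paralogue pairs were 0 at 0.01 and 0 to 17 with 1 mouse left out (17 without wild-type 49, 0 without any other), where the smallest exact p is 0.0179 or 0.0286; all 22 kept their direction there, and 15 to 25 of the 41 pairs had an unadjusted exact p at or under 0.05. Without the 3 arrays these pairs were not tested, since the design is too small to pass. The cause of lost calls was not tested. No paired analysis was run, as no pairing of wild-type with R6/2 mice was at hand.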
